A study of Mus musculus with 4 samples.

Results

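Brinp1 and Brinp3 were 2 of the 383 genes of a multiplexed error-robust fluorescence in situ hybridization (MERFISH) panel, and they were chosen for description because of how they differed between neurons and astrocytes, with position and between 2 and 18 months of age. Levels in those contrasts are therefore described without a test. MERFISH reads individual RNA molecules in a tissue section through repeated rounds of imaging, so that each segmented cell has a transcript count for every panel gene and a position. The samples were 10 µm coronal sections through the striatum of both hemispheres of wild-type C57BL/6NTac mice. Both ages, Young at 2 months and Aged at 18 months, had 2 sections each, and the labels name no treatment or further allele. The sex of the mice is not given per section, and the labels do not tie sections to animals. The study's text calls its replicates biological and counts the MERFISH samples as mice, so each section was taken as a sample of its age.

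BRINP proteins (bone morphogenetic protein and retinoic acid inducible neural-specific proteins) form a small family that carries a membrane attack complex/perforin domain. They are known as genes of the nervous system that come on as neurons leave the cell cycle. Overexpressed BRINP1 (also DBCCR1 or FAM5A) and BRINP3 (FAM5C) have been reported to slow cell-cycle progression in some cells, which need not hold in others. In the mouse reference annotation (GRCm38.p6), Brinp1 spans 193026 bases of the minus strand of chromosome 4 (68761372 to 68954397) and Brinp3 spans 406844 bases of the plus strand of chromosome 1 (146495629 to 146902472). Brinp2 was not analysed here. Probes detect different genes with different efficiency, so levels are compared between cells and sections within each gene and not between the genes.

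After cells with fewer than 10 genes or a volume below 50 µm3 were left out, 281824 of 320663 segmented cells remained, 68011 to 74624 per section, with 18765491 to 36035355 transcripts per section. The median cell held 400, 325, 215 and 293 transcripts in Young 1, Young 2, Aged 1 and Aged 2, so depth was lower in the Aged sections. Cells were clustered anew and named from marker genes: medium spiny neuron-like cells (Penk, Rgs9, Pde10a and Drd1 among their leading genes), other neuron-like cells, and astrocyte-, oligodendrocyte-, oligodendrocyte precursor (OPC)-, microglia- and vascular-like cells. Segmented outlines in dense tissue take in RNA of neighbours. Cells with at least 3 markers of their own class and at least 3 of another class were set aside. These were 18.8% to 65.3% of the cells of a class in a section. The kept cells can still carry markers of another class. Levels are transcripts of the gene per 10000 panel transcripts, summed over the remaining cells of a class in a section. They are relative to the panel and not absolute amounts. For the main orders of classes and ages, transcripts per 1000 µm3 of cell volume are given as well. Orders given by a single count can turn with the other count.

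Brinp1 was high in neurons and in OPC-like cells and low in every other class. In other neuron-like cells, most of which lay outside the outlined striatum, its level was 116 in Young 1, 148 in Young 2, 127 in Aged 1 and 128 in Aged 2 (130 ± 13, SD, n = 4 sections). In OPC-like cells it was 76.2, 73.1, 89.9 and 77.5 in the same order (79.2 ± 7.37), and in medium spiny neuron-like cells, the projection neurons of the striatum, it was 70.5, 70.4, 62.6 and 64.8 (67.1 ± 4.02). The OPC-like value was above the spiny value in each section, and both lay below the other neurons in each section. Per 1000 µm3 the first order turned in each section, with 3.1, 2.64, 2.15 and 2.34 transcripts in OPC-like cells against 5.35, 4.28, 2.65 and 3.57 in spiny cells, and other neurons stayed on top (7.74 ± 1.93). The remaining classes had 6.47 ± 1.44 in astrocyte-like cells, 6.96 ± 1.09 in oligodendrocyte-like cells, 7.47 ± 1.1 in microglia-like cells and 7.91 ± 1.59 in vascular-like cells. These neighbours in the order did not differ beyond their spread.

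Brinp3 followed another order, with OPC-like cells on top. Its level in OPC-like cells was 69 in Young 1, 79.9 in Young 2, 120 in Aged 1 and 98.5 in Aged 2 (91.8 ± 22.3), above every other class in each section. Other neuron-like cells had 20.5, 29.1, 25.5 and 26 (25.3 ± 3.55). Astrocyte-like cells had 16.6, 17.9, 27.1 and 27.2 (22.2 ± 5.73). Medium spiny neuron-like cells had 15.3, 16.3, 16.7 and 15.6 (16 ± 0.639). Counted per panel transcript, other neurons and astrocytes overlapped, and astrocytes were above spiny neurons in each section. Per 1000 µm3 OPC-like cells were again highest in each section (2.88 ± 0.0682). Astrocytes, at 0.712, 0.619, 0.664 and 0.905, were then below spiny neurons, at 1.16, 0.99, 0.708 and 0.858, in each section but Aged 2. Other neurons, at 1.47, 1.95, 1.06 and 1.53 per 1000 µm3, were above astrocytes in each section, without overlap. Oligodendrocyte-like cells (3.69 ± 0.411) and vascular-like cells (3.67 ± 0.551) could not be ordered, and microglia-like cells were lowest, at 1.8 ± 0.385.

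**Figure D1:**
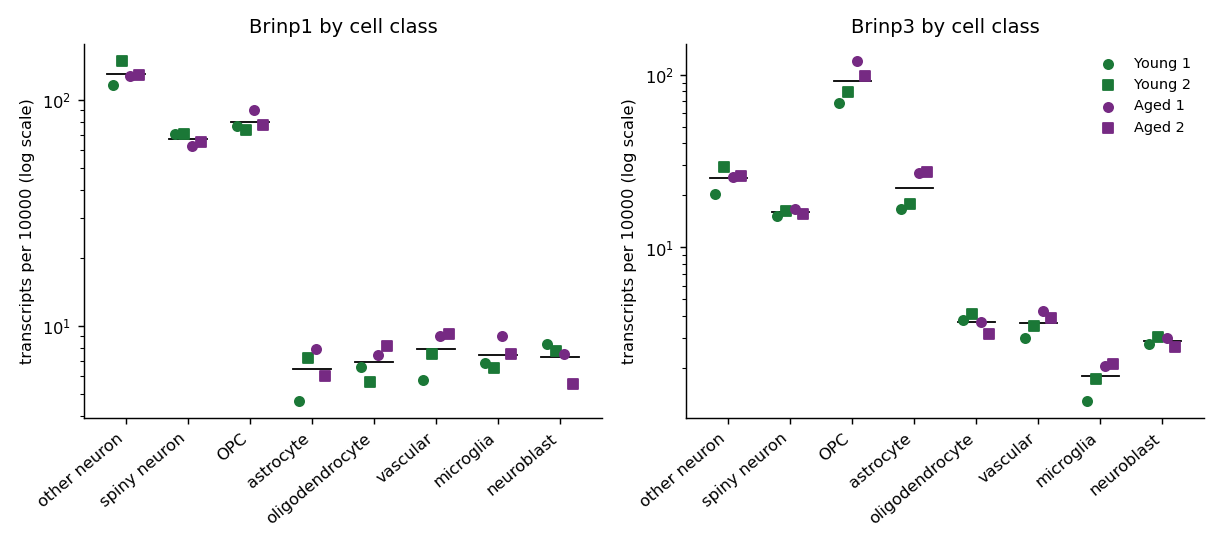
Level of Brinp1 and Brinp3 (transcripts per 10000 panel transcripts, log axis) in each cell class. Points are single sections, green for Young and purple for Aged, lines are the mean over the 4 sections, and the neuroblast-like cells come from a finer clustering. Brinp1 lies between 62.6 and 148 in neurons and OPC-like cells and under 10 elsewhere, while Brinp3 is highest in OPC-like cells and overlaps between other neurons and astrocyte-like cells.

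The neuron to astrocyte ratio set the genes apart. For Brinp1 it was 19.3, 15.6, 12.2 and 16.4 in the 4 sections (15.9 ± 2.94), and for Brinp3 it was 1.05, 1.31, 0.788 and 0.779 (0.983 ± 0.254). Per volume these ratios were 27.8 and 1.73, and the Brinp1 ratio was 8.08 when cells with markers of several classes were kept. A list of 13 neuronal genes, among them Tubb3 (a neuronal tubulin), Syp (a synaptic vesicle protein) and Snhg11 (a neuronal non-coding RNA), was read in the same cells for comparison. Some list genes, these named ones included, were also markers by which mixed cells were set aside, and all were used in clustering. Brinp1 and Brinp3 were used in neither step. These steps can lower the list outside neurons, so the comparison is uneven, and the size of this was not tested. Its ratios ran from 2.73 for Tubb3 to 62.9 for Snhg11, with a median of 7.02. The astrocyte level of Brinp1 was 0.0648 of its neuronal level, below the list's median of 0.144. The astrocyte level of Brinp3 was 1.07 of its neuronal level, above the list's highest member at 0.427. The astrocyte-like cells included some with neuroblast markers, which themselves use neuronal genes, and without them the list's median was 0.118 and its highest member 0.367, with Brinp1 at 0.062 and Brinp3 at 1.12.

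The same list was read in OPC-like cells, where the same limit holds. There the neuronal list had a median of 0.204 of its neuronal level and a highest member at 1.09, while Brinp1 stood at 0.802 and Brinp3 at 4.4. Per volume the OPC to neuron ratios were lower, at 0.444 for Brinp1 and 2.44 for Brinp3. In microglia-like cells, Brinp1 was at 0.0758 and Brinp3 at 0.0862, against a list median of 0.112. In oligodendrocyte-like cells the values were 0.0708 for Brinp1, 0.178 for Brinp3 and 0.101 for the list, so Brinp3 was above the list's median and Brinp1 below it. What part of these low values is RNA of neighbouring cells was not tested.

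Shares of cells with a transcript gave the same picture once each cell was thinned to 100 transcripts, which leaves out shallower cells. Brinp3 was found in 52.9% of thinned OPC-like cells (52.3% before thinning), 19.7% of astrocyte-like cells (20.1% before), 16.9% of all neuron-like cells (36.8% before) and 1.32% of microglia-like cells (1.61% before). Microglia-like cells served as the class for comparison, and no blank measurement of background was made. Brinp1 was found in 54% of thinned neuron-like cells (76.7% before), 49.7% of OPC-like cells (48.9% before), 3.92% of astrocyte-like cells (6.68% before) and 5.58% of microglia-like cells (6.6% before). Its thinned share in astrocytes thus lay under its thinned share in microglia, while before thinning the mean shares were nearly equal. Thinning left out 314 to 443 OPC-like, 1970 to 3601 astrocyte-like, 2593 to 4956 neuron-like and 424 to 733 microglia-like cells per section. Because neurons are numerous and rich in RNA, they still held most molecules of both genes among the cells that were not set aside. Of the transcripts in those cells, other neuron-like and spiny cells held 65.1% and 32.7% for Brinp1 and 54.9% and 33.7% for Brinp3. On the same base astrocyte-like cells held 5.94% and OPC-like cells 2.82% of Brinp3 transcripts.

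OPC-like cells were split by their own markers, Pdgfra (the growth factor receptor of precursors) and Gpr17 (a receptor of precursors committed to differentiate). Brinp3 was at 114, 132, 132 and 110 in cells with more Pdgfra than Gpr17 (122 ± 11.3), and at 46.1, 51.8, 100 and 75.5 in cells with more Gpr17 (68.5 ± 24.8). The Pdgfra side was higher in each section. Brinp1 was at 91 ± 6.01 on the Pdgfra side and 71.2 ± 11.2 on the Gpr17 side, again higher on the Pdgfra side in each section, though not per volume in Aged 1 (2.14 against 2.36). Among astrocyte-like cells, those rich in Gfap (at least 10 transcripts of this intermediate filament gene of fibrous and reactive astrocytes) had lower levels of both genes than those with 0 (Gfap-poor), in cells without neuroblast markers. Brinp3 was at 8.4 ± 3.21 in Gfap-rich and 26.8 ± 6.55 in Gfap-poor cells, and Brinp1 at 0.859 and 8.97, with no overlap between the sets of sections. Gfap-rich cells were deeper than Gfap-poor cells, with section medians of 184 to 264 against 48 to 77 transcripts, and the part of depth in this difference was not tested.

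The spiny neurons fall into the D1 type, which carries the dopamine receptor Drd1 and projects to the substantia nigra, and the D2 type, which carries Drd2 and projects to the globus pallidus. This contrast was not used in choosing the genes and was tested with edgeR's quasi-likelihood test on counts summed per type and section, with section as a block and Benjamini-Hochberg adjustment over the 383 genes. Brinp3 was lower in D1 cells, at 12, 13.2, 13.9 and 12.4 (12.9 ± 0.81), than in D2 cells, at 19.9, 19.6, 18.9 and 17.5 (19 ± 1.06). The groups did not overlap, and the log2 difference was -0.67 ± 0.04 (SE, adjusted p = 5.31e-08 by edgeR). Brinp1 was slightly higher in D1 cells, at 75, 75.7, 67.4 and 69 (71.8 ± 4.18), than in D2 cells, at 65.3, 65.7, 60.1 and 63 (63.5 ± 2.59). The fitted log2 difference was 0.07 ± 0.02 (adjusted p = 0.0165 by edgeR) and 0.18 without the scaling by trimmed mean of M-values (TMM), where the median of all genes moved to 0.10. The Brinp1 call was lost without Young 1 (adjusted p = 0.0997 by edgeR), without Young 2 (0.0648) and without the section block (0.633). Both genes were thus among the 57.7% of panel genes called in this contrast (25.8% higher and 31.9% lower in D1 cells), so a call alone does not set a gene apart.

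The D1 to D2 difference was followed along the dorsoventral axis. In all 6 segments of all 4 sections Brinp3 was lower and Brinp1 higher in D1 than in D2 cells. For Brinp3 the mean log2 difference was -1.40 in the most dorsal segment, -0.40 in the fifth and -1.05 in the most ventral. For Brinp1 it lay between 0.17 and 0.32. These segment values carry no TMM scaling, and without it the median of all genes in the D1 to D2 fit was 0.10.

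Outside the spiny class, GABA neurons (Gad2 plus Slc32a1, the enzyme and vesicular transporter of the inhibitory transmitter) were compared with neurons with no transcript of either, by the same test. Brinp1 was at 58.1, 69.9, 60.1 and 62.3 in GABA neurons (62.6 ± 5.15) and at 139, 177, 146 and 150 in non-GABA neurons (153 ± 16.5). The groups did not overlap, and the log2 difference was -1.25 ± 0.04 (adjusted p = 1.51e-09 by edgeR), and the gene was among the 61.6% of 383 genes called (29.2% higher and 32.4% lower in GABA neurons). Brinp3 was at 22 ± 1.25 in GABA and 26 ± 4.38 in non-GABA neurons, and its log2 difference of -0.19 ± 0.08 did not pass (adjusted p = 0.0669 by edgeR). It passed at -0.23 without TMM scaling (adjusted p = 0.0229) and at -0.30 without Young 1 (0.00119). Young 1 was the only section with a log2 difference above 0, at 0.05, against -0.38, -0.23 and -0.35. Somatostatin neurons, a small interneuron type (185 to 258 cells per section), had 53.9 ± 7.72 of Brinp1, below the GABA neurons as a whole in each section, and 23.7 ± 4.33 of Brinp3, on both sides of them.

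In the striatum the genes ran in opposite directions along the dorsoventral axis. Position was measured from the dorsal edge of the striatum in 6 segments of 500 µm, the last of which takes in everything beyond. Across the segments, Brinp1 in spiny neuron-like cells had mean levels of 95.9, 78.5, 64.9, 58, 49.3 and 53.4. Brinp3 had 6.26, 9.75, 13, 15.1, 20.3 and 21.7. The log2 ratio of the ventral 2 segments over the dorsal 2 was -0.72, -0.67, -0.73 and -0.96 for Brinp1 (-0.77 ± 0.13) and 1.18, 1.46, 1.24 and 1.43 for Brinp3 (1.33 ± 0.14). Each hemisphere of each section had the same direction, from -1.13 to -0.57 for Brinp1 and from 1.06 to 1.61 for Brinp3.

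**Figure D2:**
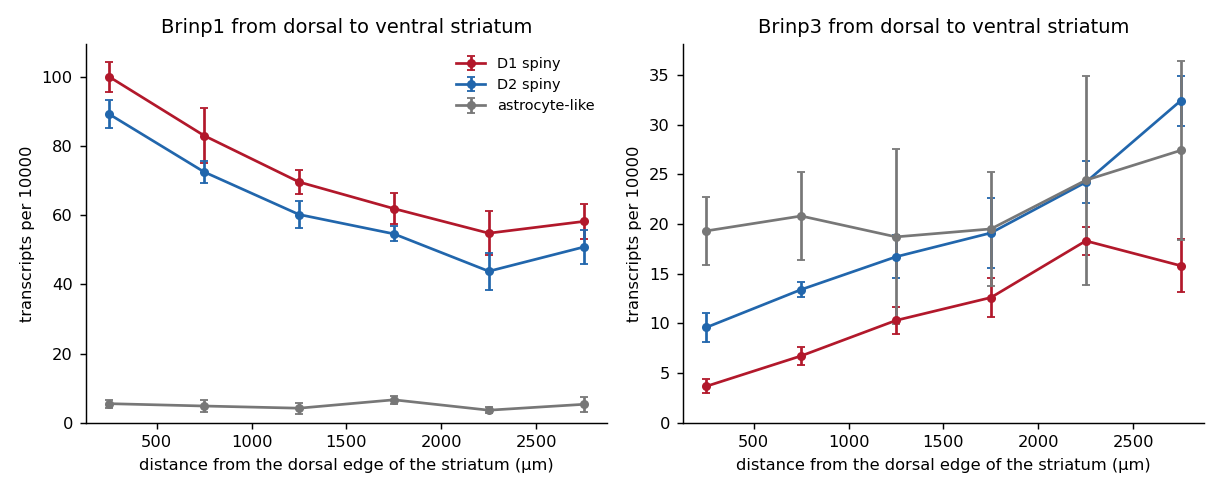
Level (transcripts per 10000 panel transcripts) of Brinp1 and Brinp3 by distance from the dorsal edge of the striatum (µm), for D1 and D2 spiny neurons and astrocyte-like cells. Points are means over the 4 sections and bars are SD. In both spiny types Brinp1 is lower and Brinp3 higher in the ventral 2 segments than in the dorsal 2, while Brinp1 stays under 10 in astrocyte-like cells.

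The gradients were present in both spiny types. In D1 cells the log2 ratio was -0.69 ± 0.17 for Brinp1 and 1.69 ± 0.09 for Brinp3, and in D2 cells it was -0.79 ± 0.13 and 1.20 ± 0.17. Among 342 genes with at least 200 transcripts in spiny cells of every section, Brinp3 ranked 12th from the most ventral end, which was led by Ptprg, Crym and Dcx, and Brinp1 ranked 14th from the most dorsal end, which was led by Sema7a, Rgs4 and Scn4b. The median gene had a log2 ratio of 0.11. The few other neuron-like cells within the striatum showed -1.11 ± 0.30 for Brinp1 and 1.37 ± 0.65 for Brinp3. Astrocyte-like cells showed no gradient of that size: -0.28 ± 0.59 for Brinp1 and 0.27 ± 0.35 for Brinp3, with sections on both sides of 0. When cells with markers of several classes were kept, the astrocyte values became -0.95 for Brinp1 and 0.43 for Brinp3, and in a wider outline of the striatum (30% spiny cells) -0.33 and 0.68. Under both settings Brinp3 was above 0 in each section, at 0.29, 0.21, 0.55 and 0.69 and at 0.26, 0.46, 0.97 and 1.03.

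**Figure D3:**
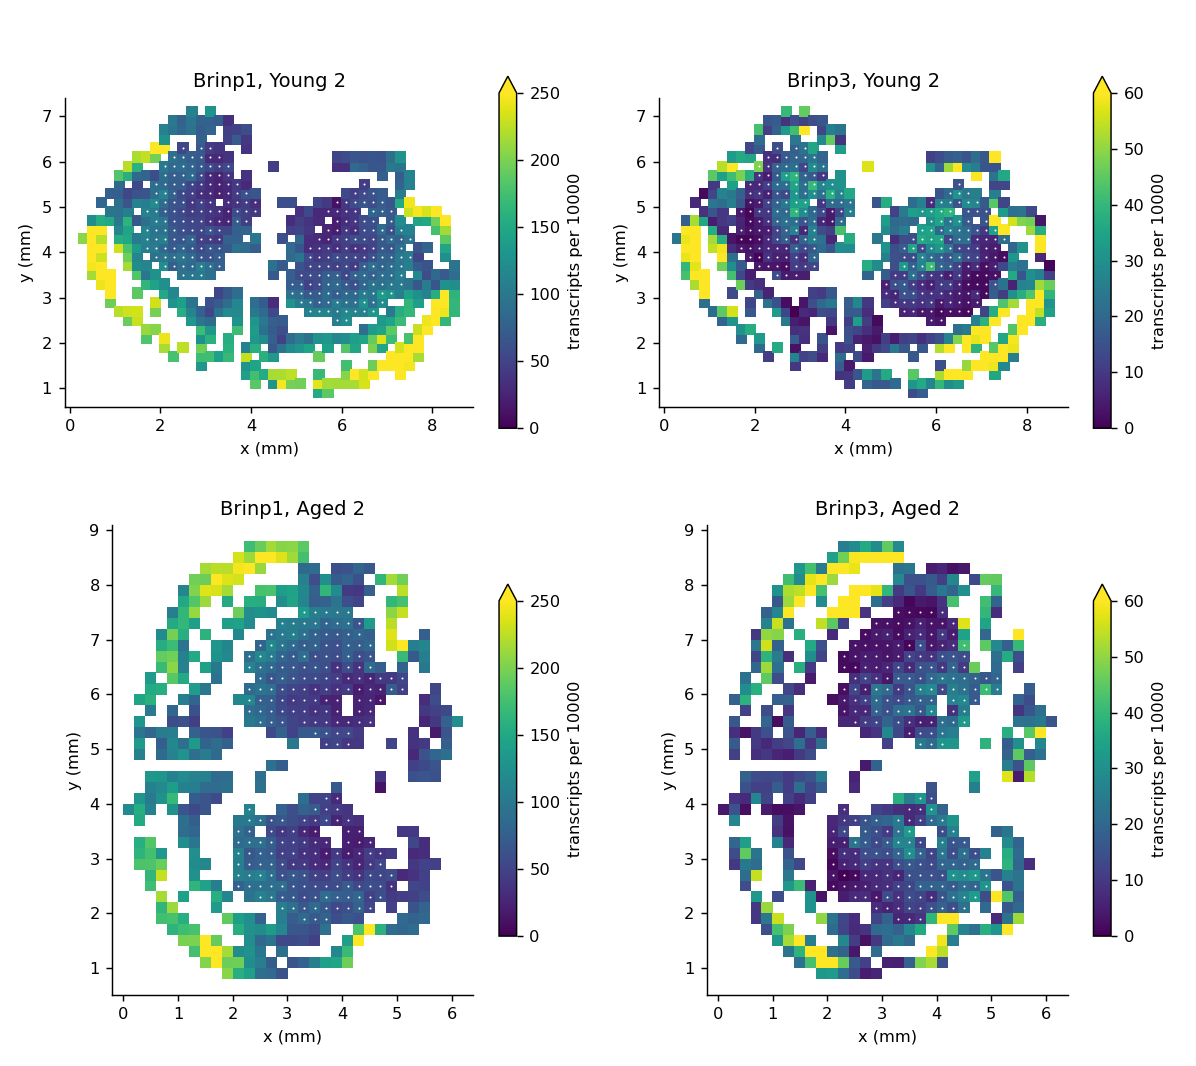
Level of Brinp1 and Brinp3 (transcripts per 10000 panel transcripts) in neuron-like cells over squares of 200 µm, in Young 2 and Aged 2, each in its own frame (x and y in mm). White dots mark striatal squares, squares with under 20 neuron-like cells are blank, and the colour scale is cut at its upper end. Brinp1 is highest near the outer edge and on the dorsal side of the striatum, and Brinp3 is highest in stretches near the outer edge and on the ventral side of the striatum.

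Outside the striatum, other neuron-like cells dorsal of its centre were binned by distance from the outer tissue edge, a path that crosses the cortex. Brinp1 was 156 at 200 to 400 µm, 184 at 400 to 600 µm and 73.5 at 1800 to 2000 µm. Brinp3 had levels of 21.1, 34.9, 32.3, 17, 21.8, 22.1, 11.2, 13.4 and 15.7 over the same 9 bins, which gave a first peak at 400 to 800 µm and a lower second one at 1000 to 1400 µm. Without Young 1 the first peak was 38.5 and 38.1, the trough 19 and the second peak 25.5 and 25.9. The Young 1 section held the fewest cells of all classes in this area (28602 against 33823, 33912 and 34778). The part of this in its levels was not tested. In the bin of 600 to 800 µm, Brinp3 was 14.8 in Young 1 against 48.9, 33 and 32.3 in Young 2, Aged 1 and Aged 2, and the Young 1 level was highest at 200 to 400 µm (28.2), with no second peak. The cortical layers themselves were not named here.

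**Figure D4:**
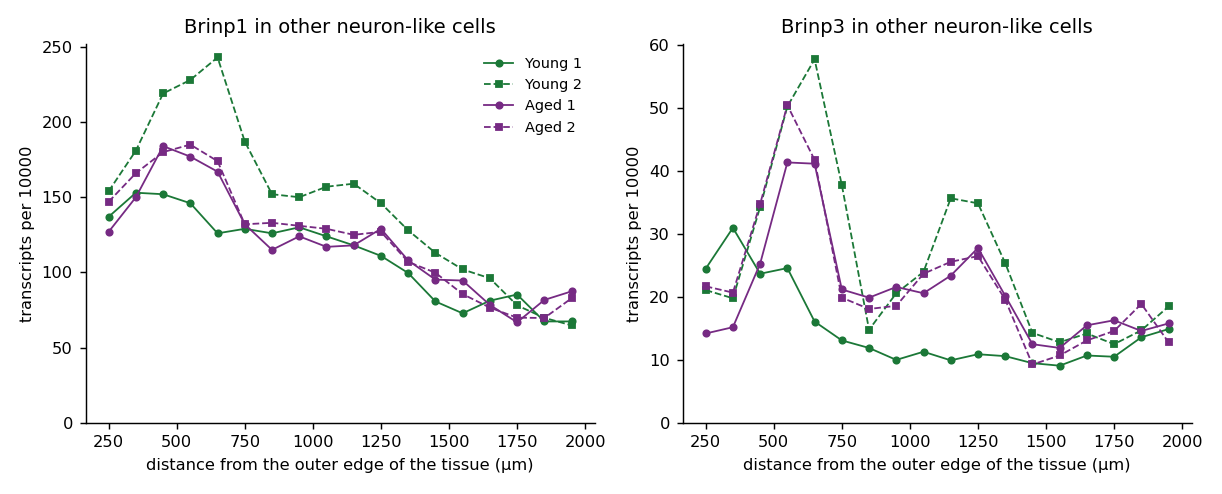
Level (transcripts per 10000 panel transcripts) of Brinp1 and Brinp3 in other neuron-like cells by distance from the outer tissue edge (µm). Lines are single sections in bins of 100 µm. Brinp1 is lower at the deep end than in the first bins in each section, and Brinp3 has a first and a second peak in each section but Young 1.

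The panel genes most like each gene were found by Pearson correlation. Over the 7 class means on the log2 scale, Brinp1 was most like Map1b (0.963), Clstn3 (0.948), Gng3 (0.936), Unc80 (0.933) and Grm5 (0.927). Brinp3 was most like Dcx (0.934), Cntn1 (0.924), Pfn2 (0.908), Ect2 (0.902) and Rims2 (0.880). Over 2427 squares of 200 µm in neuron-like cells, where points share sections and depth, Brinp1 was most like Sema7a (0.767, 0.722 to 0.809 within sections), Atp2b2 (0.733), Luzp1 (0.650), Dusp3 (0.641) and Ly6e (0.629). Brinp3 was most like Dcx (0.423, 0.321 to 0.513 within sections), Pou3f2 (0.401), Tnr (0.394), Rorb (0.379) and Luzp1 (0.371). The correlation between Brinp1 and Brinp3 was 0.718 over class means but 0.127 over squares, from -0.022 to 0.212 within sections.

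With age, Brinp3 was higher in both Aged sections than in both Young sections in astrocyte-like and OPC-like cells when counted per panel transcript. By that count both genes differed by little in neurons. Per volume the ages overlapped in both classes. The astrocyte values were 16.6 and 17.9 in Young against 27.1 and 27.2 in Aged sections, a log2 change of 0.65 ± 0.21 (SE, edgeR). The sets of sections did not overlap. With 2 sections per age, an exact permutation test can give no two-sided p below 0.333. Non-overlap of the ages is therefore a description here and below, and its share over all genes was not counted. Of the 379 genes tested in astrocytes, 4.75% passed in either direction (1.32% higher and 3.43% lower), and since the gene was chosen with this contrast in view nothing is read from it. Per 1000 µm3 the astrocyte values were 0.712 and 0.619 against 0.664 and 0.905, a log2 change of 0.24, where the median of all genes moved to -0.39. Astrocytes within the striatum had 16.1 and 15.2 at 2 months and 28.3 and 25.9 at 18 months, and those outside had 16.8 and 18.4 against 26.8 and 27.5. Per 1000 µm3 those within had 0.762 and 0.584 against 0.794 and 0.955, without overlap. Those outside had 0.7 and 0.625 against 0.641 and 0.895, which overlapped. Per panel transcript both Aged sections were above both Young sections in each of the 6 dorsoventral segments. The share of thinned astrocytes with a Brinp3 transcript was 14.9% and 16.2% in Young against 23.9% and 23.8% in Aged sections. Brinp1 in astrocytes changed by 0.23 ± 0.26, with 4.66 and 7.26 in Young against 7.93 and 6.02 in Aged sections, which overlapped.

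**Figure D5:**
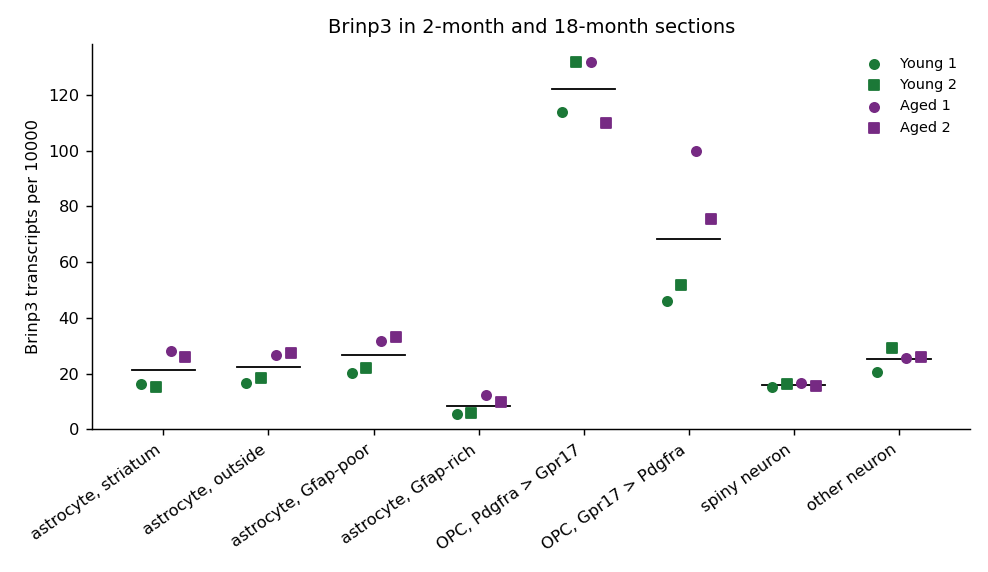
Level of Brinp3 (transcripts per 10000 panel transcripts) by section, Young and Aged, in subsets of astrocyte-like and OPC-like cells and in neurons. Points are single sections and lines are the mean over the 4 sections. Aged sections lie above Young sections in each astrocyte subset and in OPC-like cells with more Gpr17, and the ages overlap in OPC-like cells with more Pdgfra and in neurons.

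Other genes moved in the same cells. The astrocyte-like cluster held cells with 2 or more markers of neuroblasts, the migrating young neurons born near the ventricle: 12.2% and 9.81% of its cells in Young against 3.02% and 5% in Aged sections. Of the 18 genes called in astrocytes (2 without Young 1 and 8 without Aged 1), 5 were higher and 13 lower, and all 4 neuroblast markers fell: Dlx6os1 by 1.67, Dcx by 1.39, Sox11 by 1.17 and Sox4 by 1.15 on the log2 scale (adjusted p from 1.76e-11 to 0.000679 by edgeR). Among the 5 higher genes was Snhg11 of the neuronal list, which rose by 1.44 (adjusted p = 2.35e-05 by edgeR), while Tubb3 of that list fell by 0.89. The list's median in astrocytes was 0.128 and 0.15 of its neuronal level at 2 months and 0.162 and 0.135 at 18 months. The proliferation genes Top2a and Ect2 fell by 2.37 and 1.17. Without these cells, Brinp3 in astrocytes was 17.8 and 19.4 in Young against 27.5 and 28.2 in Aged sections, a log2 change of 0.52 ± 0.18, and 0 of 376 genes were called by edgeR (30 at an unadjusted p under 0.05). Brinp3 in the cells of a neuroblast-like cluster found at a finer resolution was low, at 2.86 ± 0.177.

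In OPC-like cells Brinp3 was 69 and 79.9 in Young against 120 and 98.5 in Aged sections, a fitted log2 change of 0.38 ± 0.19. The sets of sections did not overlap, and 10.5% of the 304 genes tested passed (3.29% higher and 7.24% lower). The change was 0.18 without Aged 1, and 7 genes rather than 32 passed without Aged 2. The makeup of the class also differed: cells with more Pdgfra than Gpr17, in which Brinp3 was higher, were 39.5% and 43% of OPC-like cells in Young against 56.4% and 63% in Aged sections. Taken from the levels rather than the fit, the class-wide log2 ratio of Aged over Young was 0.55. Within the Pdgfra side this ratio was -0.03, and within the Gpr17 side it was 0.85. Per 1000 µm3 the ratios of the Pdgfra and Gpr17 sides were -0.33 and 0.18. The Pdgfra side then had 4.07 and 4.04 in Young against 3 and 3.43 in Aged sections. The Gpr17 side had 2.19 and 2.19 against 2.74 and 2.23. Per 1000 µm3 the OPC-like values were 2.8 and 2.89 at 2 months and 2.87 and 2.97 at 18 months, which overlapped, and the log2 change with cell volume as the offset was 0.04, where the median of all genes moved to -0.30. Neuronal RNA in OPC-like cells was also higher at 18 months. The neuronal list had a median of 0.185 and 0.16 of its neuronal level at 2 months and 0.255 and 0.215 at 18 months, and the spiny neuron markers had 0.101 and 0.104 against 0.189 and 0.163. What part the makeup of the class or neuronal RNA has in the class-wide value was not tested. Brinp1 in OPC-like cells changed by -0.00 ± 0.19.

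In neurons the fitted changes were close to or below their errors. In spiny neuron-like cells the log2 change from 2 to 18 months was -0.14 ± 0.12 for Brinp1 and 0.04 ± 0.17 for Brinp3, and in other neuron-like cells it was -0.02 ± 0.21 and 0.08 ± 0.23. The spiny levels of Brinp1, 70.5 and 70.4 in Young against 62.6 and 64.8 in Aged sections, did not overlap, and the other 3 sets did. Per 1000 µm3 both genes had lower mean levels in Aged sections, as did the median gene (-0.49 in spiny and -0.50 in other neurons). Spiny Brinp3 then had 1.16 and 0.99 in Young against 0.708 and 0.858 in Aged sections, without overlap. Brinp1 in other neurons had 8.33 and 9.88 against 5.25 and 7.52, also without overlap, while Brinp3 there overlapped. The dorsoventral gradient had a Brinp3 log2 ratio of 1.32 in Young against 1.33 in Aged sections, and a Brinp1 ratio of -0.69 and -0.84. Over the whole panel, 0 of 383 genes were called in either neuron class by edgeR (24 in spiny and 19 in other neurons at an unadjusted p under 0.05), and 0 and 1 by DESeq2.

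BRINP genes are induced by retinoic acid and bone morphogenetic protein, so 5 panel genes of these signals were read beside them: Aldh1a2 (a retinoic acid synthesising enzyme), Stra6 (a retinol transporter) and the Id genes Id2, Id3 and Id4 (inhibitors of differentiation, targets of bone morphogenetic protein). Between D1 and D2 cells, 1 of 5 was higher in D1 (Stra6, log2 difference 0.24) and 3 were lower (Id2 at -0.49, Id3 at -0.25 and Id4 at -0.24), with a list median of -0.24 against -0.00 over all genes, beside 25.8% of all genes higher and 31.9% lower. Between GABA and non-GABA neurons, Id4 was higher in GABA neurons (1.57), and Id2 (-0.97), Aldh1a2 (-0.30) and Id3 (-0.27) were lower, with a list median of -0.27 against -0.04 over all genes, beside 29.2% of all genes higher and 32.4% lower. With age, the list had medians of 0.26 in astrocytes, 0.04 in spiny and 0.06 in other neurons. No member passed in these classes (lowest adjusted p = 0.558 by edgeR, for Id2 in astrocytes). In OPC-like cells 3 members were tested, with a median of 0.39 against 0.02 over all genes. None passed there either (Id2 was lowest, at 0.58 with adjusted p = 0.0707 by edgeR).

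Of 8 genes of the cell cycle and its arrest, 3 were higher in D1 than in D2 cells, among them the cyclin-dependent kinase inhibitors Cdkn1a (0.75) and Cdkn1c (0.55), and 2 were lower, Hmgb2 (-0.93) and Ccnd2 (-0.28). The list median was 0.14, and 57.7% of all genes were called in this contrast. In GABA against non-GABA neurons 1 was higher and 4 were lower, with Cdkn1a at -1.21, Cdkn1c at -0.82 and Ccnd2 (a G1 cyclin) at -0.80, and a list median of -0.30, beside 61.6% of all genes called. With age, 3 of 8 fell in astrocytes (Top2a, Ect2 and Ccnd2, the last by 0.90) and 2 of the 6 tested fell in OPC-like cells (Top2a by 1.95 and Ect2 by 1.65), beside 3.43% and 7.24% of all genes lower in these classes. Without cells with neuroblast markers the astrocyte values of Top2a, Ect2 and Ccnd2 were -1.62, -0.40 and -0.15, and none passed (lowest adjusted p = 0.105 by edgeR). In OPC-like cells, Snhg11 and Meg3 of the neuronal list rose, by 1.47 and 1.23, and Map1b fell by 0.87.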

How the data were processed

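MERFISH was run on 4 sections. The authors decoded transcripts with MERLIN, segmented cells, and deposited raw counts of transcripts per gene and cell, with each cell's volume and position. The deposited volume is a signal in µm3, and the authors' table of mean signal per gene was used only to check the sections. No filter had been applied to the deposited counts. Inner labels of the Young files differ from the sample titles, and the titles were used. The members and gene lists were chosen with earlier results of these data known.

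Cells with fewer than 10 genes or under 50 µm3 were removed, and no cell barcode was shared between sections. Counts were scaled to 10000 per cell, reduced to 15 principal components and clustered (Louvain, 20 neighbours, resolution 0.08, igraph 0.11.9) on 381 genes, leaving out Brinp1 and Brinp3, so class names were rebuilt. A name needed 3 markers over 1.5-fold. Cells with 3 or more markers of their own class and 3 or more of another class were left out, which stands in for a doublet caller. Cells with fewer markers of their own class were kept whatever else they carried. Spiny and other neurons did not count against each other, nor did oligodendrocytes and OPCs. A single-cell cluster stayed unnamed. The striatum was outlined where spiny cells were at least 40% within 150 µm. D1 and D2 cells had at least 3 transcripts of Drd1 or Drd2 and 3 times the other, and GABA neurons at least 5 of Gad2 plus Slc32a1. The gates use counts per cell, so deeper cells pass more often.

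Counts summed per class and section were tested in edgeR 4.0.16 (R 4.3.3; TMM, filterByExpr, quasi-likelihood test, Benjamini-Hochberg over all genes tested, threshold 0.05), with DESeq2 1.42.0 as an alternative. Section was a block between types of the same sections. Scripts were tested on simulated data. Named genes were the members, the 5 most like each over class means and over squares, and the gene lists. Depth was 18765491 to 36035355 kept transcripts per section. Alternatives changed the scaling, volume as the offset, the tool, the mixed-cell rule, resolution, gates, outline, block and sections used.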

Additional observations from a re-analysis of the deposited data

Results flagged for a closer look

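In 2 cases both Young sections went one way along the dorsoventral axis of the striatum and both Aged sections the other, and in both the difference was not tested. The log2 ratio of ventral over dorsal levels of Brinp1 in astrocyte-like cells was 0.25 in Young 1 and 0.07 in Young 2, and -0.37 in Aged 1 and -1.09 in Aged 2. With cells of several classes kept, the ratios of all 4 sections were below 0, from -1.05 to -0.82. Per volume Young 2 was at -0.22, so the split by age was gone. Single hemispheres ran from -3.37 to 1.66. The ratio of Brinp3 in OPC-like cells was 0.96 in Young 1 and 0.16 in Young 2, and -0.17 in Aged 1 and -0.42 in Aged 2. Some segments of a section held as few as 12 OPC-like cells, and with cells of several classes kept the ratios were -0.09, 0.38, -0.37 and 0.06, so the split by age was gone.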

How the results depend on the processing

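Of 152 values recomputed under another setting, 122 stayed within the spread between sections or kept their call, 28 moved, and 1 lost and 1 gained a call. Of the log2 values, 3 changed sign, all with cell volume as the offset, and 5 did so when 1 section was left out; each was an age change of a member that was close to or below its error. With cell volume in place of total transcripts as the offset, the median age change of all genes moved to -0.49 in spiny, -0.50 in other neurons and -0.39 in astrocytes. Brinp1 and Brinp3 then stood at -0.63 and -0.46 in spiny neurons (1 gene called), -0.51 and -0.40 in other neurons and -0.19 and 0.24 in astrocytes. In OPC-like cells, added after seeing the data, the median was -0.30, Brinp1 -0.36 and Brinp3 0.04 (19 genes called). Relative to those medians Brinp3 in astrocytes kept its sign. The neuron over astrocyte ratio became 27.8 for Brinp1 and 1.73 for Brinp3 per volume, and 8.08 for Brinp1 with mixed cells kept, and the OPC over neuron ratio 0.444 and 2.44 per volume. The age change of Brinp3 in astrocytes was 0.56 with mixed cells kept, 0.56 at resolution 0.3 (2 genes called, not 18) and 0.52 without cells with neuroblast markers (0 called by edgeR, 30 at an unadjusted p under 0.05). The last setting was chosen after seeing the data. DESeq2 called 1 gene in other neurons. Without the section block, 51 and not 221 genes were called between D1 and D2 cells, with Brinp1 at 0.07 and no longer called, and 118 and not 236 between GABA and non-GABA neurons. Brinp3 in the latter passed at -0.23 without TMM. In astrocytes the dorsoventral ratio was -0.95 for Brinp1 with mixed cells kept and 0.68 for Brinp3 in a 30% outline. Leaving out 1 section gave age changes of -0.18 to -0.09 (Brinp1) and -0.06 to 0.14 (Brinp3) in spiny neurons with 0 to 1 genes called, -0.25 to 0.24 and -0.22 to 0.44 in other neurons, and -0.03 to 0.53 and 0.63 to 0.66 in astrocytes with 2 (without Young 1) to 17 called, and 8 without Aged 1. In OPC-like cells Brinp3 ranged from 0.18 (without Aged 1) to 0.56 (without Aged 2) and was 0.19 with mixed cells kept (7 called, not 32). The OPC-like count was 20 without Young 1 and 7 without Aged 2. D1 against D2 gave 0.07 to 0.09 and -0.71 to -0.61 (192 to 220 called), and GABA against non-GABA -1.27 to -1.19 and -0.30 to -0.09 (197 to 233 called). The ratios ran from 14.7 to 17.1 for Brinp1 and 0.874 to 1.05 for Brinp3, and the dorsoventral ratios from -0.80 to -0.71 and 1.28 to 1.38 in spiny neurons and -0.46 to -0.02 and 0.16 to 0.42 in astrocytes. The cause of these shifts was not tested. The replicate numbers do not pair Young with Aged sections by the labels, and the correlation of same-numbered deviations was -0.43, -0.07 and -0.26 in spiny neurons, other neurons and astrocytes. With the replicate block 0, 0 and 13 genes were called there, and with the numbers crossed, chosen after seeing the data, 0, 0 and 19. The replicate block changed no other call (36 against 32 genes in OPC-like cells). Depth limits the smaller classes, where the lowest section had 543 OPC-like cells.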

Other observations

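Classes with little of either gene showed these age values. In oligodendrocyte-like cells the fitted log2 change from 2 to 18 months was 0.24 for Brinp1 and -0.33 for Brinp3, in microglia-like cells 0.08 and 0.25, and in vascular-like cells 0.45 and 0.33. The vascular levels of Brinp1 were 5.8 and 7.56 in Young against 9.01 and 9.26 in Aged sections, and those of Brinp3 2.98 and 3.52 against 4.26 and 3.93. Per 1000 µm3 the vascular values of both genes overlapped between ages, with log2 ratios of Aged over Young levels of 0.06 for Brinp1 and -0.07 for Brinp3. The same ratios were -0.26 and -0.83 in oligodendrocyte-like cells and -0.22 and -0.01 in microglia-like cells. The neuronal list in the same cells had medians of 0.107 and 0.107 of its neuronal level in Young against 0.139 and 0.143 in Aged sections. What part neuronal RNA has in these values was not tested.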
